A study of Mus musculus with 20 samples.

Results

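The coelomic epithelium (CE) is the sheet of cells that lines the body cavity and covers the genital ridge. Described here are the 2335 cells that the authors' cell table annotates as CE and places at E10.5 (E for embryonic day). They made up part of the 14962 cells captured at that stage and of the 94705 cells of the series, in which CE cells of all stages numbered 4920. Droplet-based single-cell 3′ end sequencing had been run on urogenital ridges, gonad and mesonephros together, of embryos from CD-1 females and heterozygous Tg(Nr5a1-GFP) males. This transgene, which expresses GFP under control of Nr5a1 sequences and helped to find the ridges at dissection, was carried by every group. The groups used were XX and XY embryos of E10.5 and of E11.5, untreated, with 2 libraries each from independent replicates (8 libraries). CE cells of E10.5 were compared with cells annotated as mesonephric mesenchyme and as mesonephric tubules in the same libraries, with each other after a split on Nr5a1 or on Pax8, between XX and XY, and with CE cells of E11.5.

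Cells of the CE over the genital ridge divide, leave the surface and give rise to much of the somatic gonad, including supporting cells and steroidogenic cells. The transcription factors Wt1, Gata4, Lhx9, Emx2 and Nr5a1 are each required for the ridge to form or to survive, and GATA4 acts upstream of Lhx9 and Nr5a1 in the ridge. Upk3b encodes a uroplakin that marks mesothelium, the epithelium of body cavities. Pax8, with Pax2, marks the nephric duct and tubules of the intermediate mesoderm.

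The 4 libraries of E10.5 contributed unequal numbers of CE cells. XX replicate 1 held 140 CE cells, which was 5.47% of its cells (95% exact binomial interval 4.62 to 6.43), XX replicate 2 held 602 (13.2%, 12.2 to 14.2), XY replicate 1 held 781 (28.4%, 26.7 to 30.1) and XY replicate 2 held 812 (15.97%, 15.0 to 17.0). These intervals cover counting error only, and the 4 shares differed from each other by more than they allow. Values given below for 4 libraries follow this order. Summed CE counts came to 4114303 to 20793522 unique molecular identifiers (UMIs, 1 per captured transcript) per library, and the median CE cell held 23540 to 26956 UMIs. All 2335 cells lay in 1 of the authors' clusters, whereas 2553 of the 2569 CE cells of E11.5 lay in another. Among CE cells of E10.5, 4 cell barcodes were seen in more than 1 library.

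Several libraries stood apart. XX replicate 1 of E10.5 had the fewest CE cells. At E11.5 the CE sum of XX replicate 2 held transcripts of the Y-linked Ddx3y at 6.89 CPM (counts per 1000000 UMIs of the sum) against 0 in XX replicate 1, and that of XY replicate 2 held Xist at 36.0 CPM against 0.781 in XY replicate 1. Results that use E11.5 are therefore also given without these 2 libraries. Red blood cell transcripts (9 globin and other erythroid genes) summed to 315, 48.8, 476 and 219 CPM in CE cells of E10.5, against at least 464700 in erythrocytes of the 3 libraries with at least 5 of these cells. Their part in the results was not tested. Mesenchyme genes (11 of the list) summed to 1710 to 2340 CPM in CE cells against 2342 to 2861 in mesenchyme, and tubule genes (12) to 116 to 153 against 934 to 1234 in tubules. The lists of cell types from elsewhere stood low in all 4 libraries, with germ cell genes at 9.28 to 13.7 CPM against 4717 or more in germ cells (3 libraries), immune genes at 1.43 to 2.67, endothelial genes at 41.6 to 49.5 and neural genes at 12.0 to 26.0. None of the genes of these lists was at 0.

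The 5 markers of the CE were looked at first, as a check of the annotation (plot of levels by cell type). Values are CPM scaled by the trimmed mean of M values (TMM), and each comparison has its own scaling, so that a gene's level shifts slightly between them. Upk3b (chr5:136038496-136046487, GRCm38) stood at 95.3, 76.4, 98.5 and 63.0 CPM in CE cells, against 6.17 to 13.4 in mesenchyme and 2.46 to 3.71 in tubules. Lhx9 (chr1:138825186-138848577), a LIM homeobox gene, was at 184, 259, 240 and 186 CPM, against 24.1 to 42.5 and 3.26 to 6.17. Nr5a1 (chr2:38692656-38714542), the nuclear receptor gene needed for gonads and adrenals, was at 80.7, 92.8, 72.0 and 79.4 CPM, against 8.12 to 10.9 and 3.75 to 8.35. For these 3 genes, and for Gata4 and Wt1 below, no CE library overlapped with any library of the other cell types.

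Gata4 (chr14:63198922-63271692) was at 39.6, 83.8, 63.2 and 49.4 CPM in CE cells, above 13.1 to 22.5 in mesenchyme and 1.81 to 5.17 in tubules. Wt1 (chr2:105126529-105173616), which encodes a zinc finger factor that the whole urogenital ridge uses, set the CE apart least. It stood at 143, 213, 210 and 202 CPM against 68.1 to 111 in mesenchyme and 61.5 to 65.9 in tubules. The markers thus went with the label in each library, and since the authors' clusters were built on these genes the differences are given without a test.

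**Figure D1:**
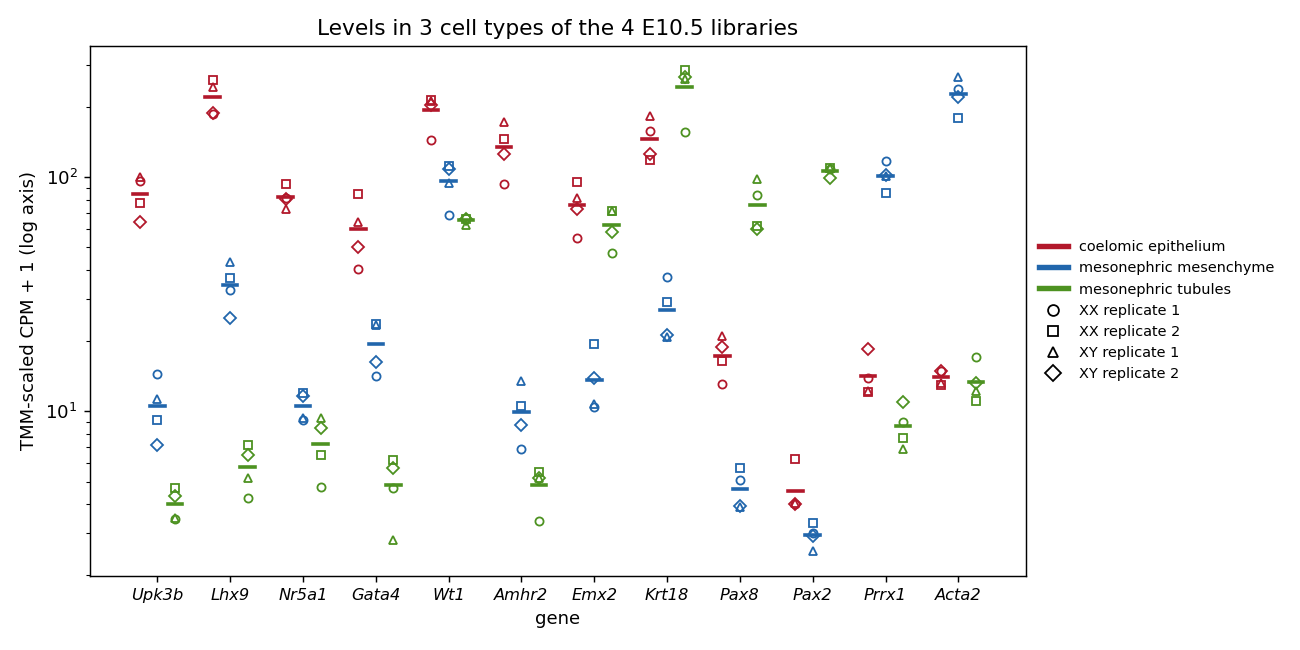
TMM-scaled CPM plus 1 (log axis) of 12 genes in coelomic epithelium, mesonephric mesenchyme and mesonephric tubules of the 4 E10.5 libraries. Symbols are libraries and bars are means; the CE stands above both other types for Upk3b, Lhx9, Nr5a1, Gata4, Wt1 and Amhr2, between them for Krt18 and Pax8, and level with tubules for Acta2.

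Detection per cell was compared after each cell was thinned to 10000 UMIs, which left out 1 CE cell. Wt1 was then seen in 81.0% ± 4.34 of CE cells (SD, n = 4 libraries), Lhx9 in 59.4% ± 5.41, Nr5a1 in 45.8% ± 2.63, Gata4 in 36.5% ± 8.18 and Upk3b in 32.9% ± 6.71. Without thinning these shares were 95.8%, 68.8%, 66.3%, 55.7% and 44.8%. Endothelial cells (171 over the 4 libraries) should lack these transcripts. At the same depth 6.60%, 5.93%, 6.63%, 2.75% and 0.676% of these cells showed them. These shares are the background against which a CE share is to be read, with an SD of 6.47 between libraries for Wt1. In the same order, mesenchyme showed the 5 genes in 49.4%, 17.1%, 7.96%, 13.9% and 4.31% of cells. Tubules showed them in 34.5%, 4.00%, 5.27%, 3.66% and 2.45%. GFP of the transgene was seen in 89.6% ± 4.82 of CE cells, 18.6% of endothelial cells, 34.95% of mesenchyme and 34.4% of tubules. Pax8 was seen in 12.2% ± 3.24 of CE cells, 0.294% of endothelial cells, 3.27% of mesenchyme and 44.9% of tubules.

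Detection of these genes was uneven among CE cells. Of cells with a UMI of Nr5a1, 75.2% ± 4.16 also held Lhx9 and 48.2% ± 8.65 held Gata4, against 46.2% ± 6.11 and 26.7% ± 7.79 of cells without. Upk3b was found in 35.8% ± 11.4 and 30.2% ± 5.68, a difference within the spread between libraries. Gata2, a zinc finger factor gene, showed the opposite arrangement, in 4.74% ± 2.58 of cells with Nr5a1 and 23.5% ± 11.2 of cells without. Over all CE cells its share was 15.1%, against 14.8% in mesenchyme. Among cells with Gata2, only 11.6% ± 9.59 held Lhx9 and 4.83% ± 3.62 held Gata4, against 67.9% ± 4.31 and 42.4% ± 9.70 of cells without it. Aldh1a2, which encodes the main enzyme of retinoic acid synthesis in the embryo, was present in 98.2% ± 1.79 of the former and 80.4% ± 3.01 of the latter. Shares of Upk3b were 33.9% ± 14.5 and 33.0% ± 5.95, with the cells that held Gata2 higher in XX replicate 1 (6 of 11 cells) and lower in the other 3 libraries.

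Against mesenchyme, CE cells had higher levels of 10 of 20 mesothelial and simple epithelial genes and 6 of 21 genes of ridge specification, and lower levels of 10 of 17 genes of transition and mesenchyme. A gene was counted when its log2 ratio of CPM + 1 was at least 1 in size and of 1 sign in all 4 libraries, with a mean of at least 10 CPM in the higher type. By this description 185 of 17120 genes (1.08%) were higher in the CE and 144 (0.841%) lower. Over all genes the median log2 ratio was -0.01.

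Of 20 measured genes of mesothelium and simple epithelium, 10 were counted as higher and 1 as lower, and the median log2 ratio of the list was 1.50. Krt18 and Krt8, the keratin pair of simple epithelia, had log2 ratios of 2.45 ± 0.52 and 2.11 ± 0.59 (SD, n = 4). Krt18 read 156, 117, 181 and 124 CPM in CE cells and 36.4, 28.3, 19.7 and 20.1 in mesenchyme. Podxl, the sialomucin of apical membranes, was higher by 3.28 ± 0.55. Lrrn4 and Bnc1, both known from mesothelium, were higher by 2.23 ± 0.33 and 2.31 ± 0.15. The 1 lower member was Tbx18, a T-box factor of the ureter and body wall mesenchyme, with 8.07, 6.17, 3.60 and 5.74 CPM against 38.9, 49.3, 54.6 and 45.8. Cdh1, which encodes E-cadherin, stayed at or under 2.27 CPM in every CE library, so that keratins were present with next to no E-cadherin transcript.

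Among 21 measured genes of ridge specification, 6 were counted as higher (Nr5a1, Gata4, Lhx9, Emx2, Nr6a1 and Nr0b1) and 1, Osr1, as lower, with a median log2 ratio of 0.48. Emx2, a homeobox gene needed for the urogenital ridge, stood at 53.7, 94.0, 80.6 and 71.9 CPM against 9.38 to 18.3. Nr0b1, which encodes the corepressor DAX1, was at 14.6, 20.1, 38.3 and 24.0 CPM against 0.937 to 1.54. Wt1 missed the count with a mean ratio of 1.02 ± 0.12, since 2 libraries fell below 1. Outside the lists, Amhr2, the receptor gene for anti-Müllerian hormone, read 92.8, 144, 171 and 124 CPM against 5.91 to 12.47, a log2 ratio of 3.76 ± 0.07. Chchd10, which encodes a mitochondrial protein, read 433, 597, 439 and 526 CPM against 21.8 to 35.3, and GFP had a ratio of 3.86 ± 0.32.

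Mesenchymal genes were lower in the CE than in mesenchyme but not absent. Of 17 genes of epithelial-mesenchymal transition and mesenchyme, 0 were counted as higher and 10 as lower, with a median of -1.55 and negative ratios in all 17. Acta2, smooth muscle actin, read 13.9, 11.9, 12.2 and 13.8 CPM against 237, 177, 267 and 218, the lowest ratio among genes that reached 20 CPM (-4.00 ± 0.24). Prrx1, a homeobox gene of mesenchyme, had a ratio of -2.86 ± 0.29, Twist1 one of -1.72 ± 0.20 and Col3a1, a fibrillar collagen gene, one of -1.55 ± 0.19. Vim, the intermediate filament of mesenchyme, was at 453, 561, 538 and 516 CPM in the CE, within a log2 ratio of -0.51 ± 0.17. Of 32 Hox genes, which pattern the body axis, 5 were counted as lower (Hoxa2, Hoxa9, Hoxa10, Hoxb9 and Hoxc10) and 0 as higher.

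Against tubules, the second epithelium of the same libraries, 327 of 17120 genes (1.91%) were counted as higher in the CE and 361 (2.11%) as lower, and the median over all genes was -0.01. Of 12 tubule genes 10 were counted as lower, with a median log2 ratio of -4.10. Pax2 read 3.03, 5.21, 3.04 and 3.02 CPM in CE cells and 107, 108, 109 and 98.3 in tubules. Epcam and Cldn6, an epithelial adhesion gene and a tight junction claudin, had ratios of -4.41 ± 0.23 and -5.73 ± 0.26. Emx2 was the exception, with 53.7 to 94.0 CPM in the CE and 46.2 to 70.9 in tubules and a ratio of 0.28 ± 0.10. Pax8 lay between the other 2 types: 12.1, 15.3, 19.9 and 17.7 CPM in the CE, 2.89 to 4.74 in mesenchyme and 59.2 to 96.6 in tubules.

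Krt8 and Col3a1 each stood in the CE at a level between those of mesenchyme and tubules. Krt8 was at 49.9 to 83.2 CPM in the CE and 111 to 197 in tubules (-1.33 ± 0.29), whereas Vim (2.27 ± 0.24) and Col3a1 (2.24 ± 0.32) were higher in the CE. Of the 17 mesenchyme genes 6 were counted as higher than in tubules and 0 as lower. Of the 32 Hox genes 10 were counted as lower, which were Hoxa10 and 9 genes of the Hoxb cluster. The plot of both ratios places Nr5a1, Gata4, Lhx9, Nr6a1 and Nr0b1, the ridge genes counted as higher than in both types, at the upper right. Most tubule genes lie at the bottom and mesenchyme genes on the left. The medians of the whole ridge list were 0.48 against mesenchyme and 0.43 against tubules.

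**Figure D2:**
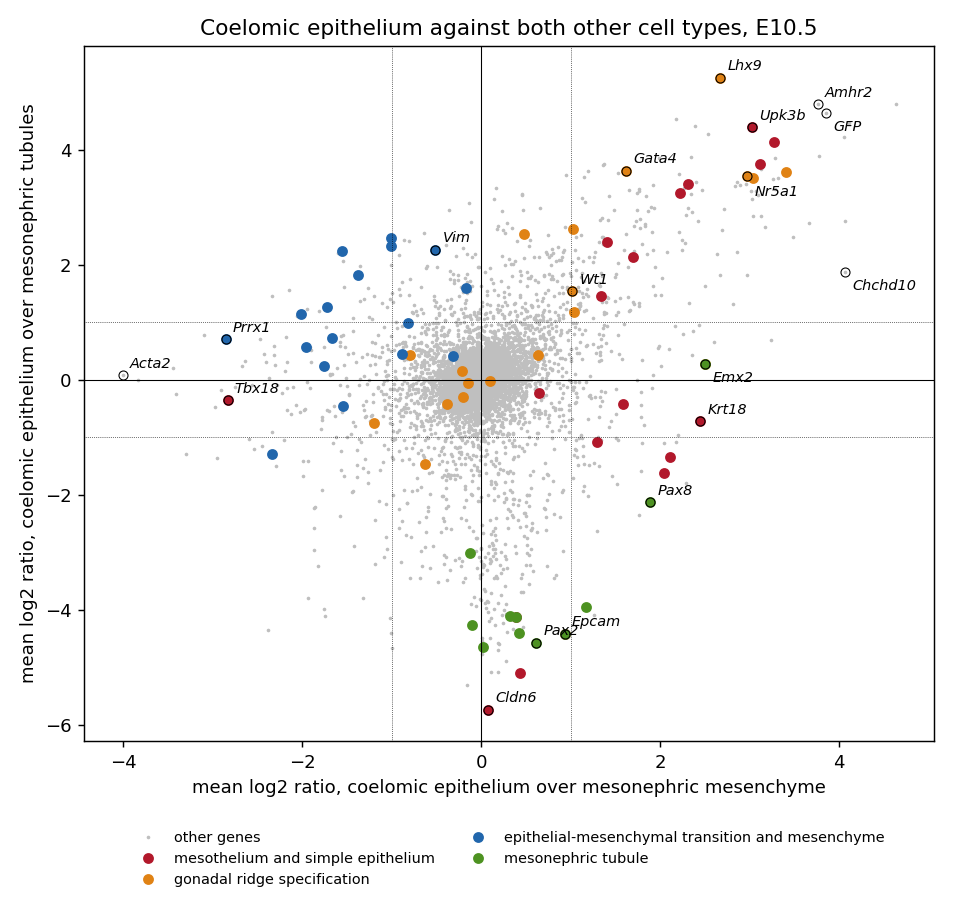
Mean log2 ratio over 4 libraries of coelomic epithelium to mesonephric mesenchyme (horizontal) and to mesonephric tubules (vertical), for genes with at least 10 CPM in any of the types; dotted lines mark a ratio of 1 in size. Lhx9 (2.67 and 5.26), Upk3b (3.03 and 4.39) and Amhr2 (3.76 and 4.79) exceed both types, while Pax8 (1.89 and -2.12) exceeds mesenchyme and falls short of tubules.

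Cells with and without a UMI of Nr5a1 were then compared within each library, matched cell by cell in total UMIs (49, 171, 275 and 294 cells per class). This asks what goes with the transcription factor within the epithelium at 1 stage. Of 12654 genes, 1006 (7.95%) rose and 916 (7.24%) fell in cells with Nr5a1, by edgeR's quasi-likelihood test with library as a block, where a call needed a Benjamini-Hochberg adjusted p below 0.05 and a change on the log2 scale of 0.361 or more (0.25 in natural log). The median over all genes was -0.00 on the log2 scale. Without XY replicate 2 the counts were 687 and 589, and without the library block 372 and 311. More genes rose than fell in the lists of ridge specification, the supporting lineage and steroid synthesis, and more fell than rose in those of Hox genes, mesenchyme, the retinoic acid pathway and the WNT pathway.

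Of 19 tested genes of ridge specification 10 rose and 4 fell, with a median log2 fold change of 0.58. Gata4 read 55.3, 100, 89.7 and 67.5 CPM in cells with Nr5a1 and 7.23, 37.4, 20.6 and 17.3 without, a log2 fold change of 1.90 (SE 0.12, edgeR adjusted p = 1.4e-08). Lhx9 read 277, 303, 309 and 241 CPM against 54.6, 117, 88.9 and 67.1 (1.75, SE 0.09, edgeR adjusted p = 3.1e-09). Neither gene's classes overlapped across the libraries, and the share of all genes without overlap is not reported here. Emx2, Zfpm2 (the GATA4 cofactor FOG2), Tcf21, Nr6a1, Nr0b1 and Gadd45g also rose, by 0.65, 1.14, 0.58, 1.77, 2.18 and 2.07. Among the 4 members that fell were Osr1 (-1.32), Six4 (-1.30) and Cbx2 (-0.49). Wt1 passed on p but not on size (0.34, SE 0.05), and Upk3b read 114, 79.1, 101 and 51.4 CPM against 65.8, 50.5, 90.6 and 60.2, with overlapping classes (0.23, SE 0.11, edgeR adjusted p = 0.19). Without XY replicate 2 Upk3b passed (0.43), and Tcf21 (0.46) and Cbx2 (-0.47) did not. Six4 did not pass without XY replicate 1 (-0.88), nor Cbx2 without cells that hold Pax2, Pax8 or Lhx1 (-0.30).

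Of 11 steroid synthesis genes 7 were tested, of which 6 rose and 0 fell, with a median of 1.65. A gene could pass the filter on low counts through the cells with Nr5a1 alone. Members near 0 in cells without Nr5a1 could then hardly be called as fallen. Star, which carries cholesterol into mitochondria, read 11.9, 19.8, 34.0 and 19.5 CPM in cells with Nr5a1 and 1.61, 4.92, 10.2 and 2.34 without (2.13, SE 0.19, edgeR adjusted p = 6.0e-07). Cyp11a1, the side-chain cleavage enzyme, read 4.74, 7.48, 12.2 and 13.9 CPM against 0.803, 1.37, 4.18 and 2.34 (2.06, SE 0.23). Fdxr, the reductase that feeds it electrons, rose by 1.69 and Hsd3b1 by 1.65. Hsd3b1 rested on few reads, at 1.55 to 11.1 CPM against 0 to 2.05. Scarb1, the lipoprotein receptor, did not pass (0.23, SE 0.10). Star and Cyp11a1 were low in both classes beside Gata4 or Amhr2.

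Amhr2 also rose, by 1.77 (SE 0.06), from 36.9 to 67.0 CPM without Nr5a1 to 128 to 222 with it. Of 12 tested genes of the supporting lineage 7 rose and 2 fell, with a median of 0.94. Kctd14, a gene of the list, had the largest rise among genes that reached 20 CPM (3.21, SE 0.13), but it read 3.16, 48.4, 103 and 37.4 CPM with Nr5a1 against 0, 4.10, 10.52 and 5.13, so that XX replicate 1 hardly had it. Rspo1, the R-spondin that later promotes ovary development, rose by 0.52 (SE 0.11), a call lost in cells not matched in total UMIs (0.35), whereas Wnt4 fell by 1.13 on the log2 scale, from 85.9, 133, 108 and 143 CPM without Nr5a1 to 30.8, 60.9, 46.7 and 71.2 with it. GFP rose by 1.82 (SE 0.08). Nr5a1os, an antisense gene that overlaps Nr5a1 (chr2:38712676-38720638, opposite strand) and was picked after its value was seen, rose by 1.42, and reads of the 2 cannot be told apart without strand.

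Gata2, Alx1 and most tested genes of mesonephric mesenchyme were higher in cells without Nr5a1. Gata2 read 45.0, 39.9, 127 and 86.1 CPM in them and 3.16, 12.3, 13.2 and 15.7 in cells with Nr5a1 (-2.71, SE 0.16, edgeR adjusted p = 1.1e-08). Alx1, a homeobox gene, fell by 2.32 and Igfbp3, which binds insulin-like growth factors, by 2.12. Of 10 tested genes of mesonephric mesenchyme 9 fell and 0 rose (median -0.58), among them Meis1 with 138, 117, 113 and 148 CPM against 185, 193, 188 and 203. Of 17 genes of mesenchyme and transition 11 fell and 0 rose, Twist1 by 1.65. The retinoic acid pathway had 2 rises and 7 falls among 14 genes. Its synthesis enzyme Aldh1a2 read 265, 213, 255 and 228 CPM against 495, 320, 476 and 473 (-0.87, SE 0.07), while Aldh1a1 rose by 2.33 and the retinol importer gene Stra6 fell by 1.85.

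In the signalling and cell cycle lists, too, more genes fell than rose. In the WNT pathway 3 of 25 genes rose and 10 fell, in the BMP pathway 3 of 24 rose and 7 fell, and in the Hedgehog pathway 0 of 8 rose and 3 fell. Over all genes 7.95% rose and 7.24% fell. Of 14 cell cycle genes 2 rose, the inhibitors Cdkn1a and Cdkn1c, and 6 fell. Mki67, a marker of cycling cells, read 53.0, 45.4, 49.1 and 46.6 CPM with Nr5a1 and 89.1, 63.1, 69.2 and 62.6 without (-0.50, SE 0.07, edgeR adjusted p = 0.00012), but in cells not matched in total UMIs the change was -0.27 and missed the fold threshold. Of 6 erythrocyte genes 0 passed, and of 4 endothelial genes 1 rose and 2 fell.

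**Figure D3:**
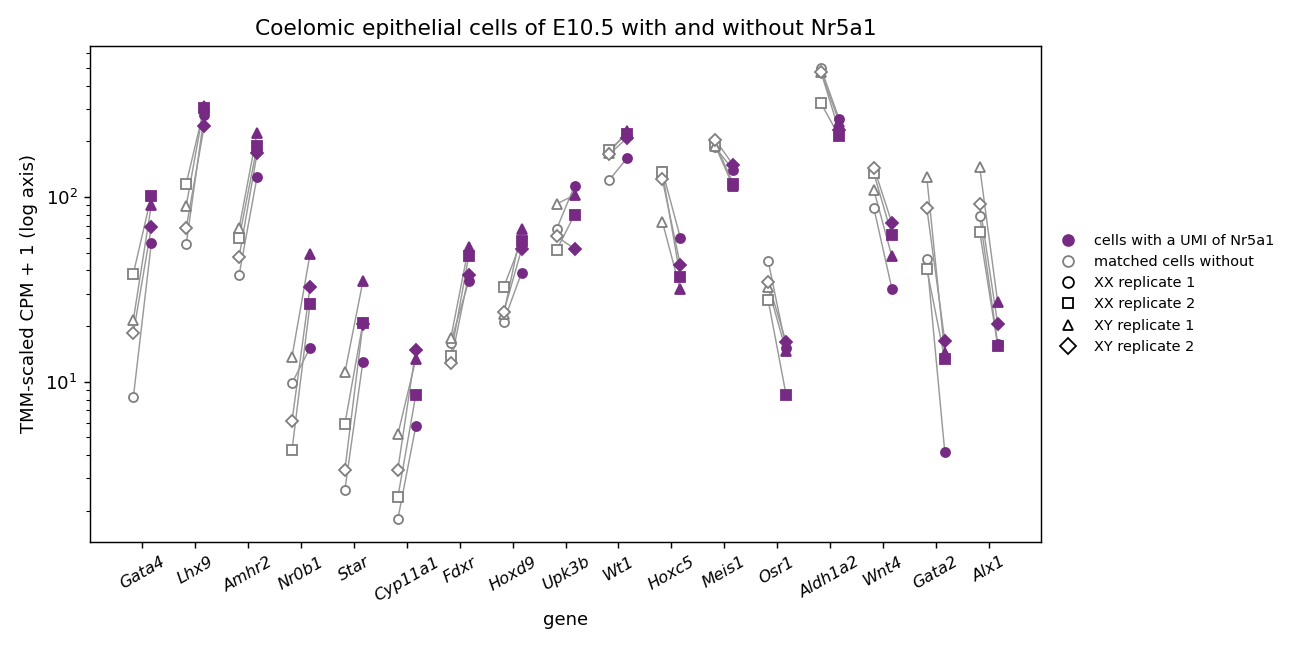
TMM-scaled CPM plus 1 (log axis) of 17 genes in coelomic epithelial cells of E10.5 with a UMI of Nr5a1 (filled) and depth-matched cells without (open), joined within each of the 4 libraries. Gata4, Lhx9, Amhr2, Nr0b1, Star, Cyp11a1, Fdxr and Hoxd9 rise in every library, Hoxc5, Meis1, Osr1, Aldh1a2, Wnt4, Gata2 and Alx1 fall in every library, and Upk3b crosses.

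NR5A1 binds DNA as a monomer at the nuclear receptor core AGGTCA, usually with bases added in front. The 250 bases before the start of 4 genes of this comparison, and of the marker Lhx9, are shown because these genes moved with Nr5a1 in opposite directions. They are RefSeq sequences of build GRCm38.p6, read 5′ to 3′ on the strand of the gene, and capitals mark AGGTCA, searched on both strands. Amhr2 is chr15:102445117-102445366 (plus strand), Nr0b1 is chrX:86191525-86191774 (plus), Cyp11a1 is chr9:58014702-58014951 (plus), Lhx9 is chr1:138842445-138842694 (minus) and Gata2 is chr6:88193641-88193890 (plus). The windows of Lhx9 and Cyp11a1 lie within the annotated span of their gene, so they precede internal starts.
Amhr2: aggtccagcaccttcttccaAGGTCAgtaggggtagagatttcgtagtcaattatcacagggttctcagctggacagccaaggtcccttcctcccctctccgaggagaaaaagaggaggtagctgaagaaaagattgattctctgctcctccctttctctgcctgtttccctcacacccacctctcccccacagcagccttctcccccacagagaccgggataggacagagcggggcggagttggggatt
Nr0b1: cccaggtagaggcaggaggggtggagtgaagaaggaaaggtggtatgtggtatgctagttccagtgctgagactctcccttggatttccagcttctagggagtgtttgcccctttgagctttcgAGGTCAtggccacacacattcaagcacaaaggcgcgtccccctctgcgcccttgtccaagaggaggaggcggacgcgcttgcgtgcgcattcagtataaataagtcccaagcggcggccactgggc
Cyp11a1: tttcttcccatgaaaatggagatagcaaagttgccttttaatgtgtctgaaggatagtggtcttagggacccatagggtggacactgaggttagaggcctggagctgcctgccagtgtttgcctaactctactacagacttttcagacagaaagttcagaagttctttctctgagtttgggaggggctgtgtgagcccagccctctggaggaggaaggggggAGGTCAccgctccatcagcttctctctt
Lhx9: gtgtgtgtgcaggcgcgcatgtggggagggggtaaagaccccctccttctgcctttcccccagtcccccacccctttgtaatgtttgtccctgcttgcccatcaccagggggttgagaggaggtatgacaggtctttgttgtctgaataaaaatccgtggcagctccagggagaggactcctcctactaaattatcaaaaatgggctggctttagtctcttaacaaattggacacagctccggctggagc
Gata2: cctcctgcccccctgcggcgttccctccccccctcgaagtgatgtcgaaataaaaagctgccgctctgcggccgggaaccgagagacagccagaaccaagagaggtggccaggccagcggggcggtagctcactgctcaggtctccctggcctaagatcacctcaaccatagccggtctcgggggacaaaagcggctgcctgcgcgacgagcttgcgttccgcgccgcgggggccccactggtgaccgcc
The motif lay 230 bases before the start in Amhr2, 126 in Nr0b1 and 28 in this start of Cyp11a1, and was in neither the Lhx9 nor the Gata2 window. The other start of Cyp11a1 held no match, 1 of the 2 starts of Nr6a1 held it, and so did the window of Upk3b, which did not pass the test. Counted by gene, at any start and among genes with a promoter entry, it was found in 13.4% of those that rose (101 of 753). It was found in 79 of 632 genes that fell and in 12.4% of those tested. Counted by promoter, it was in 14.0% of all 32851 in the set. A match is a description of letters, and the shares counted by gene were close to each other.

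The split on Pax8 was made among CE cells with a UMI of Gata4 or Nr5a1, so that the cells compared carried a gonadal transcription factor, again matched in total UMIs. Classes held 9, 76, 129 and 122 cells, and XX replicate 1 with its 9 cells gives few reads. Of 11004 genes 221 (2.01%) rose and 268 (2.44%) fell in cells with Pax8, and the median over all genes was 0.00. Without XY replicate 2 the counts were 139 and 153, and without the library block 31 and 24. In cells not matched in total UMIs 357 rose. Of 12 tubule genes 5 were tested, of which 2 rose with Pax8 (Gata3 and Wfdc2) and 0 fell, with a median log2 fold change of 0.95. A gene could pass the filter on low counts through the cells with Pax8 alone. Members near 0 in cells without Pax8 could then hardly be called as fallen. The part of tubule transcripts in the other results of this split was not tested. Without cells that hold Pax2 or Lhx1 the counts were 192 and 246. Pax2 was seen in 62.3% of tubule cells thinned to 10000 UMIs, so this setting need not remove every cell with tubule transcripts. Pax2 read 21.2, 8.53, 3.60 and 4.01 CPM with Pax8 and 0, 3.97, 3.15 and 1.85 without (0.95, SE 0.39, edgeR adjusted p = 0.23), against 98.3 to 109 in tubules. In cells not matched in depth Pax2 passed (1.14), as it did among all CE cells (1.72).

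Gata3, Gata2, Wnt4, Osr2 and Adtrp were among the genes that rose. Gata3, a factor gene of the nephric duct, read 30.2, 30.6, 14.1 and 28.4 CPM with Pax8 and 0, 3.97, 3.87 and 3.39 without (2.65, SE 0.25, edgeR adjusted p = 8.3e-08). Gata2 read 18.1, 43.1, 28.8 and 39.8 CPM against 2.94, 7.95, 11.1 and 12.3 (1.74, SE 0.17). Wnt4, the WNT ligand needed for kidney tubules and for the ovary, read 75.5, 144, 95.9 and 140 CPM against 20.6, 36.8, 28.8 and 50.9 (1.69, SE 0.10, edgeR adjusted p = 3.6e-11). No library of the cells with Pax8 overlapped with those without for these 3 named genes, and the share over all genes is not reported here. Osr2 rose by 2.12 (SE 0.22), although in XX replicate 1 it read 12.1 against 14.7 CPM. Adtrp, which codes for a membrane protein, rose by 2.43 (SE 0.14).

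Lhx9 fell, from 215, 330, 357 and 283 CPM without Pax8 to 90.7, 84.3, 143 and 56.1 with it (-1.75, SE 0.11, edgeR adjusted p = 9.3e-11). Cbln1, a cerebellin precursor gene, fell by 1.93 on the log2 scale and Tcf21, a factor gene of organ mesenchyme, by 1.10. Mesothelial and simple epithelial genes fell in 7 of 17 tested cases, and 2, Krt18 and Cldn6, rose (median -0.47). Upk3b was among those that fell, with 15.1, 48.7, 86.1 and 39.1 CPM against 73.5, 96.9, 102 and 75.9 (-0.67, SE 0.12). Wt1 (-0.32, SE 0.06) and Emx2 (-0.36, SE 0.10) did not pass the fold threshold, although Emx2 did by a small margin without XX replicate 1 (-0.40), without cells that hold Pax2 or Lhx1 (-0.40), in all CE cells (-0.39), in cells not matched in depth (-0.39) and with total UMIs in place of TMM (-0.36). Gata4 and Nr5a1 chose the cells and were not tested, and in thinned cells Nr5a1 was seen in 40.0% ± 4.17 of all CE cells with Pax8 and 46.7% ± 2.63 of those without, Gata4 in 11.1% ± 8.12 and 39.9% ± 9.24.

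Of the supporting-like cell list, 12 of 15 tested genes rose and 0 fell, with a median of 0.65. This list was chosen by the study on these samples, so the count is not independent evidence of its direction. Sox9, the later Sertoli cell factor gene, read 30.2, 57.2, 71.4 and 90.0 CPM against 38.2, 38.7, 38.7 and 42.9 (0.85, SE 0.11), higher in 3 of 4 libraries. Igf1 rose by 0.82 (SE 0.10), Enpp2 by 1.53 (SE 0.19), Nr0b1 by 0.67 (SE 0.11) and Sfrp1 by 0.60 (SE 0.07). Of 12 genes of the insulin and IGF pathway 5 rose (Igf1, Igf2, Igfbp3, Igfbp4 and H19) and 0 fell. Kctd14 of the supporting lineage fell by 1.48, a call lost without XY replicate 1 (-0.83) and under DESeq2. Genes named for later supporting cells thus moved both ways.

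**Figure D4:**
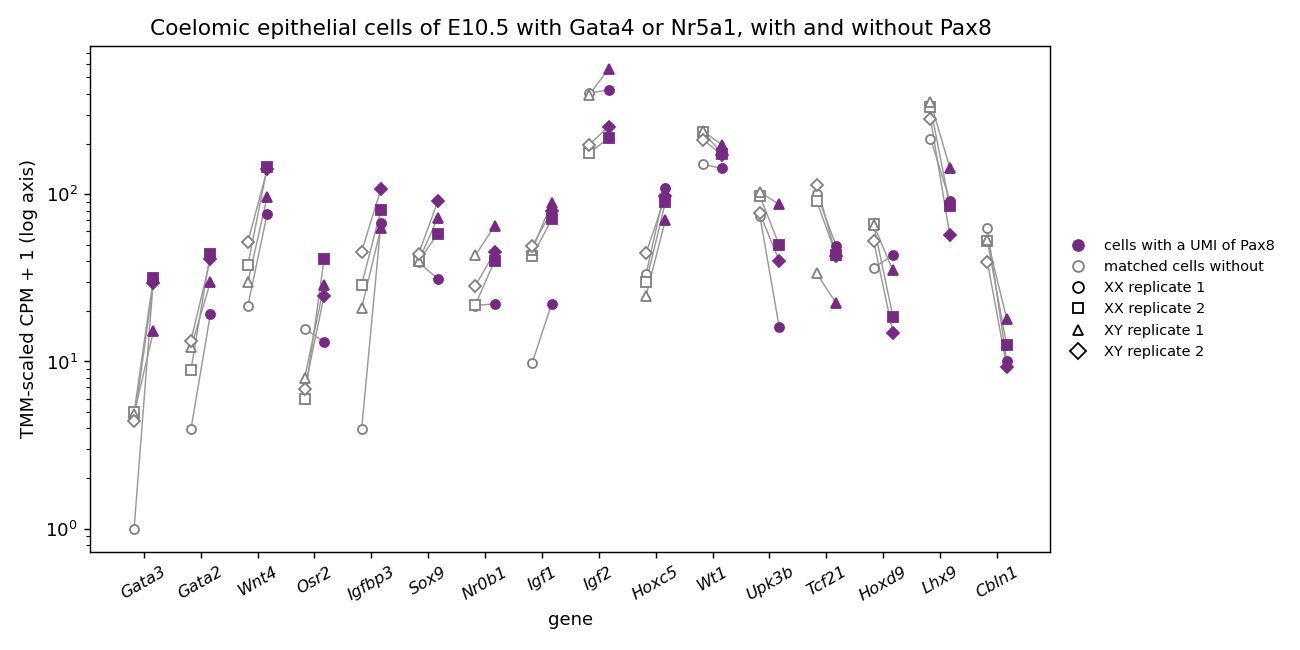
TMM-scaled CPM plus 1 (log axis) of 16 genes in coelomic epithelial cells of E10.5 that hold Gata4 or Nr5a1, with a UMI of Pax8 (filled) or depth-matched without (open), joined within each library. Gata3, Gata2, Wnt4 and Igfbp3 rise and Lhx9, Cbln1 and Tcf21 fall in all 4 libraries; XX replicate 1, with 9 cells per class, crosses for Osr2, Sox9 and Hoxd9.

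Hox genes separated the cells in both splits (plot of Hox genes). In cells with Nr5a1, 17 of 27 tested Hox genes fell and 2 rose, with a median log2 fold change of -0.85. Both that rose were of the Hoxd cluster. Hoxd9 (chr2:74697727-74700208) read 37.9, 56.9, 66.2 and 51.1 CPM with Nr5a1 and 20.1, 31.4, 22.2 and 22.7 without (1.22, SE 0.11, edgeR adjusted p = 7.2e-07), and Hoxd8 rose by 0.84 (SE 0.17). Hoxc5 read 59.3, 35.8, 30.6 and 41.8 CPM against 138, 135, 72.6 and 124 (-1.51, SE 0.09), and Hoxb2 fell by 1.49. In cells with Pax8 10 of 23 tested Hox genes rose, none of them of the Hoxd cluster, and Hoxd8 and Hoxd9 fell (-0.73 and -1.32). The call of Hoxd8 there was lost without XX replicate 2 (-0.74), XY replicate 1 (-0.70) or XY replicate 2 (-0.63), without the library block (-0.69), with no filter on low counts (-0.73) and under DESeq2 (-0.67).

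From E10.5 to E11.5, CE cells had higher levels of Lhx9, Gata4 and Wnt5a and lower levels of Pax8, Gata2, Wnt4 and 18 of 30 tested Hox genes. Stage and the date in the sample titles coincide, so that they cannot be told apart. At E11.5 the paper annotates early supporting-like cells, which strongly expressed Pax8, and presupporting cells apart from the CE. The E10.5 cells with Pax8 studied here stayed within the CE label. Whether this difference in labels had a part in the stage results was not tested. Of 16867 genes 2479 (14.7%) were higher and 2035 (12.1%) lower at E11.5 by edgeR in 8 libraries. In a fit of CE and mesenchyme sums of the same libraries, 1327 of 18145 genes (7.31%) rose more or fell less in the CE than in mesenchyme and 1456 (8.02%) did the reverse. That split turned to 992 and 2049 when sums were scaled to total UMIs in place of TMM. Without the XX and XY replicate 2 libraries of E11.5 the counts were 1256 and 1042 over stage and 1166 and 1186 relative to mesenchyme. The medians over all genes were 0.02 and 0.01.

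Lhx9 rose from 186, 258, 242 and 187 CPM at E10.5 to 412, 440, 384 and 444 at E11.5 (0.94, SE 0.13, edgeR adjusted p = 0.0014), and Gata4 from 40.0, 83.3, 63.5 and 49.5 to 104, 123, 109 and 114 (0.91, SE 0.20). Relative to mesenchyme they rose by 1.76 and 1.71, but with tubules as the reference the differences were -0.08 and 0.45 and did not pass. Wt1 rose by 0.70 but by no more than in mesenchyme (-0.05, SE 0.07), and by 1.09 more than in tubules. Nr5a1 was lower at E11.5, with 62.0, 60.5, 60.6 and 49.3 CPM against 81.5, 92.3, 72.4 and 79.6 (-0.49, SE 0.10, edgeR adjusted p = 0.0080), and its change did not differ from that of mesenchyme by the test (-0.10, SE 0.16). Upk3b read 87.8, 137, 71.6 and 120 CPM at E11.5 against 96.3, 76.0, 99.1 and 63.1 and did not pass (0.32, SE 0.22). Without both E11.5 replicate 2 libraries Upk3b turned to -0.08, and Gata4 (0.83) and Nr5a1 (-0.41) no longer passed. With equal numbers of CE cells per library Nr5a1 fell just short of the fold threshold as well (-0.36).

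Pax8, Gata2 and Wnt4 fell over the stage. Pax8 fell from 12.2, 15.2, 20.1 and 17.8 CPM to 2.91, 4.04, 3.84 and 2.63 (-2.29, SE 0.19, edgeR adjusted p = 0.00014), Gata2 from 16.8, 18.3, 50.1 and 40.3 to 10.2, 8.23, 6.18 and 4.83 (-1.99, SE 0.15) and Wnt4 from 49.9, 74.8, 66.8 and 94.8 to 38.6, 34.7, 29.7 and 26.0 (-1.16, SE 0.16). The stages did not overlap for these 3 named genes, and how many of all genes did so is not reported here. The log2 change in the CE less that in mesenchyme was -3.60 for Pax8, -4.43 for Gata2 and -2.51 for Wnt4. Such a difference also counts what the gene did in mesenchyme. For Igfbp3 and Aldh1a2 this difference was -3.50 and -2.13, while their CE means went from 68.4 to 27.1 CPM and from 321 to 161 CPM. Dlk1, a Notch ligand relative and imprinted gene, fell from 859 to 1367 CPM to 153 to 203 (-2.73, SE 0.17). Of 11 tubule genes 7 fell and 0 rose. Tubules themselves made up 18.2% ± 3.36 of the cells of a library at E10.5 and 6.65% ± 1.05 at E11.5. Whether tubule transcripts in the CE sums had a part in these falls was not tested.

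In the WNT pathway 14 of 31 tested genes rose over the stage, 3 fell and the others did not pass. Over all genes 14.7% rose and 12.1% fell, the shares beside which the counts over the stage are to be read. Wnt5a, a ligand of non-canonical signalling, went from 7.39, 14.3, 10.4 and 14.9 CPM to 98.8, 77.1, 81.7 and 84.9 (2.82, SE 0.19), by 1.37 more than in mesenchyme. Sp5, a target gene of the pathway, rose by 4.13 (SE 0.40) and Wnt6 by 1.43 (SE 0.27), the latter by less than in mesenchyme (-2.47). Relative to mesenchyme the list was split, 5 up and 9 down among 32. In the BMP pathway 12 of 28 genes rose and 5 fell over the stage, Bmp2 by 2.82 (SE 0.27). In the Notch pathway 6 of 14 rose and 1 fell, and the target Hes1 rose by 2.37 (SE 0.10), with no difference from mesenchyme past the test (-0.22). Calb1, which encodes a calcium buffer, rose by 3.53 more than in mesenchyme.

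Immediate early genes and germ cell genes also moved with stage. Fos and Egr1, 2 immediate early genes that tissue dissociation is known to induce and that were picked after their values were seen, read 110, 76.4, 358, 75.2 and 19.6, 17.2, 70.4, 14.9 CPM at E10.5, and 516 to 651 and 126 to 251 at E11.5. Egr1 moved alike in mesenchyme (0.01, SE 0.09) and Fos nearly so (0.42, SE 0.10, not past the fold threshold without XX or XY replicate 1 of E11.5, at 0.35 and 0.34, or with total UMIs in place of TMM, at 0.33, and lost without the library block). Among germ cell genes 5 of 7 rose and 1 fell over the stage, Pou5f1 by 2.20 (SE 0.37), and 0 of 8 differed from the change in mesenchyme. The summed germ cell list in the CE went from 9.28 to 13.7 CPM to 21.9 to 40.5. Of 6 tested endothelial genes 3 rose (Pecam1, Kdr and Esam) and 1 fell, 2 of 7 (Kdr and Egfl7) rose relative to mesenchyme, and the summed list went from 41.6 to 49.5 CPM to 49.8 to 71.3. Whether these had a part in the stage results was not tested.

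Over the stage 18 of 30 tested Hox genes fell and 4 rose, with a median of -1.18, and the 4 were Hoxd8, Hoxd9, Hoxd10 and Hoxd11. Hoxd9 read 30.8, 56.2, 49.5 and 38.9 CPM at E10.5 and 82.7, 93.4, 116 and 119 at E11.5 (1.19, SE 0.17), and Hoxd10 went from 3.06 to 6.17 up to 29.9 to 46.5 CPM (2.82, SE 0.16). Hoxd11 stayed below 4 CPM. Hoxc5 fell by 1.69 and Hoxb2 by 2.96 on the log2 scale. Relative to mesenchyme 5 of 32 rose, among them the same 4 Hoxd genes, and 17 fell. The call of Hoxd11 was lost there without XX replicate 2 of E10.5 (0.77), XX replicate 1 of E11.5 (1.29) or XY replicate 2 of E11.5 (1.32), without both E11.5 replicate 2 libraries (1.25) and without the library block (1.42). Hoxd8 and Hoxd9 thus stood higher both in cells with Nr5a1 at E10.5 and in the CE of E11.5, in 2 comparisons that share the E10.5 cells.

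**Figure D5:**
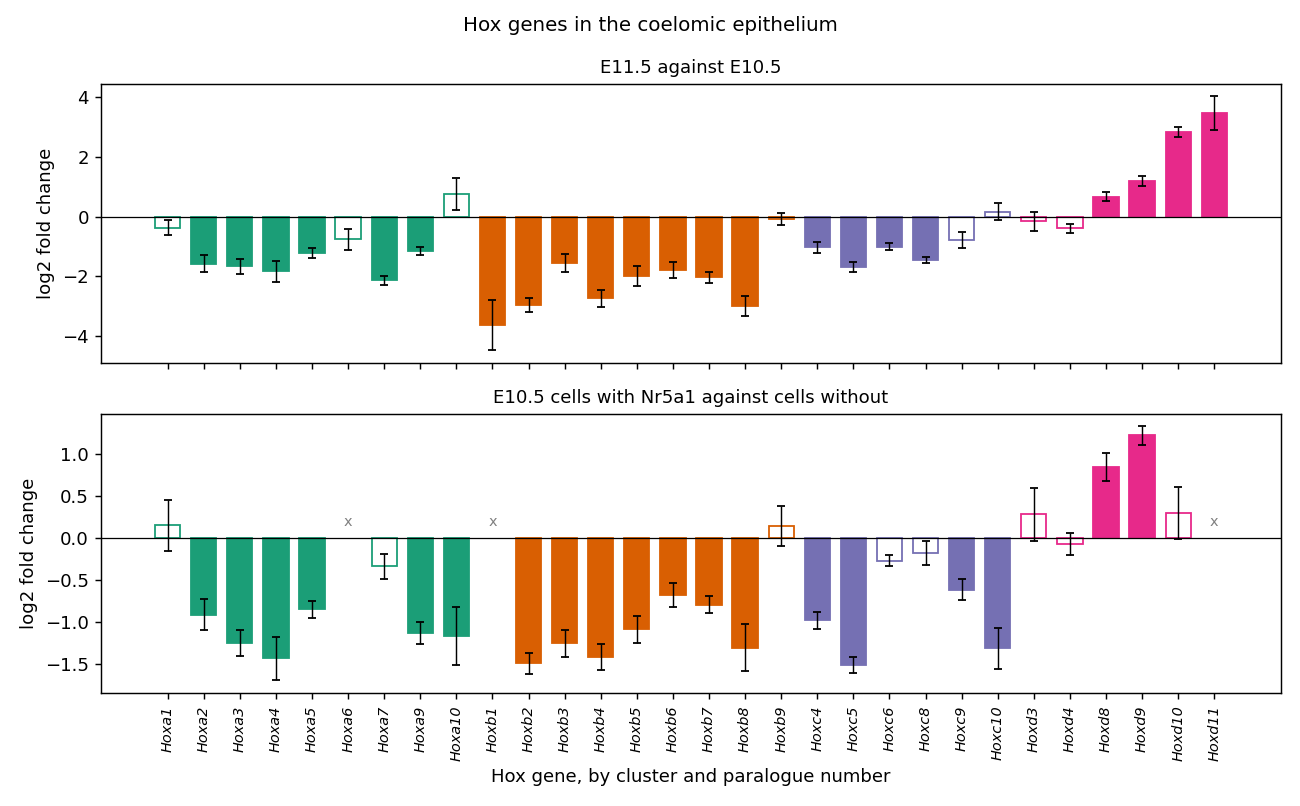
Log2 fold change (bar) and SE (line) of Hox genes, ordered by cluster and paralogue number, between CE cells of E11.5 and E10.5 (top) and between E10.5 CE cells with and without Nr5a1 (bottom). Filled bars passed the test and a cross marks a gene not tested; the filled bars above 0 are Hoxd8 to Hoxd11 in the top panel and Hoxd8 and Hoxd9 in the bottom panel.

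XX and XY CE cells of E10.5 differed in 1 gene past the test, Kdm5d, with 0 genes (0%) higher in XX and 1 (0.00593%) lower among 16867, and 400 at an unadjusted p below 0.05. DESeq2 called 3 higher and 8 lower, and edgeR called 2 and 4 without the E11.5 replicate 2 libraries. Leaving out single libraries gave 2 higher and 10 lower without XY replicate 2, 5 lower without XX replicate 1 or XX replicate 2 of E11.5, and 2 higher without XY replicate 1 or XY replicate 2 of E11.5. No gene was called without XX replicate 2, with Kdm5d at an edgeR adjusted p of 0.14, or with the title date as a block, at 0.052. Kdm5d, a Y-linked demethylase gene, was at 0 in both XX libraries, which allows up to 0.729 and 0.200 CPM, and at 15.2 and 16.45 CPM in XY. The other Y-linked genes and Xist also went with the labels at E10.5, but none of them was called in this fit. Its spread was estimated over all 8 libraries, including the 2 of E11.5 that held transcripts of the other sex. With the 4 libraries of E10.5 alone, edgeR called 2 genes higher and 4 lower. Ddx3y was at 0 and 0 in XX and 73.4 and 56.6 CPM in XY, and Xist at 1096 and 1196 against 0.659 and 0.555. Gata2 was lower in XX, with 16.8 and 18.3 against 50.1 and 40.3 CPM, without overlap but short of the edgeR test (-1.36, SE 0.20, adjusted p = 0.16), and Igfbp3 read 39.7 and 47.9 against 86.6 and 94.3 (-1.03, SE 0.15, edgeR adjusted p = 0.16). DESeq2 called both, and edgeR called Gata2 when genes were not filtered on low counts (-1.37, adjusted p = 0.044).

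The gene markers did not pass between the sexes. Lhx9 had a log2 difference of 0.06 (SE 0.19) between XX and XY, Gata4 of 0.16 (SE 0.28), Nr5a1 of 0.20 (SE 0.14), Upk3b of 0.08 (SE 0.31), Wt1 of -0.21 (SE 0.18) and Pax8 of -0.44 (SE 0.24). A p that misses the threshold with 2 libraries a side does not show that the sexes were alike. Thinned shares of Gata2 followed its levels, at 7.86% and 9.47% of CE cells in XX and 22.7% and 20.3% in XY. Exact intervals were 3.99 to 13.6, 7.25 to 12.1, 19.8 to 25.8 and 17.6 to 23.3. They cover counting error within a library only and do not measure a difference between the sexes. Shares and levels rest on the same UMIs. In mesenchyme the share of Gata2 ran from 6.91% to 19.1% between the 4 E10.5 libraries.

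Cell cycle phases assigned in the cell table differed between the libraries. In G2/M were 40.7%, 29.7%, 28.9% and 33.7% of CE cells of E10.5, and in G1 17.1%, 36.0%, 31.0% and 31.0%. XX replicate 1, with 140 cells, had the fewest cells in G1. Over libraries 28.8% ± 8.13 of CE cells were in G1, against 24.9% ± 5.37 of mesenchyme and 41.0% ± 10.4 of tubules. Within libraries the tubules had more cells in G1 than the CE in 4 of 4, at 26.8%, 46.9%, 50.1% and 40.3%. At E11.5 44.1% ± 1.81 of CE cells were in G1 and 20.5% ± 2.62 in G2/M. The share in G1 was higher than at E10.5 in the other types as well, at 47.8% ± 3.94 of mesenchyme and 75.8% ± 5.03 of tubules. The scores behind these calls read all transcripts of a cell, and the calls could not be redone at equal depth from the table.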

How the data were processed

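Droplet 3′ libraries were aligned by the authors with Cell Ranger 2.1 (named in the submitters' processing notes) to GRCm38.p5 with the transgene sequence added. The deposited counts are raw UMI counts per gene and cell, and strand use in counting is not given in the sources used here. The authors removed no cell on quality or doublet score. Cell types, stages and clusters come from the deposited cell table, and its phases rest on cell cycle scores computed by the authors. Replicates are independent biological samples by the study's methods. They are numbered by the order of the dates in the sample titles, and the replicate numbers of the cell table run the other way at E10.5 and E11.5. The members and the gene lists were chosen with earlier results of these data known.

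For each library, the UMIs of a cell type were added up and tested with edgeR 4.0.16 (quasi-likelihood, TMM, filterByExpr) in R 4.3.3 with limma 3.58.1. A gene was called at a Benjamini-Hochberg adjusted p below 0.05 over all genes tested and a natural-log fold change of at least 0.25. DESeq2 1.42.0 was an alternative, and an adjusted p it gave as NA was kept out. Other steps used python 3.11.15, pandas 2.3.3, numpy 2.4.6, matplotlib 3.10.9, scipy 1.17.1 and scikit-learn 1.9.0. Log2 ratios to other cell types used CPM + 1 and no test, since the types were clustered on these genes. For shares of cells, each cell was thinned to 10000 UMIs. No cell was left out as a doublet in the main results. The CE sums of 4114303 UMIs or more set the precision, and intervals and floors (3 counts for a 0) cover counting error only.

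Named genes are list members and, per comparison, the 10 largest rises and falls among called or counted genes with at least 20 CPM in the higher group, each followed in the other comparisons. Genes picked after their values were seen are marked, and some genes that the rule covers are not reported here. Library blocks pair sums from the same library: deviations of paired sums correlated at 0.53 to 0.70 (CE and mesenchyme), 0.32 to 0.62 (Nr5a1 split) and 0.18 to 0.48 (Pax8 split). XX and XY libraries that share a title date correlated at 0.24 at E10.5 and 0.43 at E11.5, with fewer than 3 pairs per stage. The tests were tried on simulated data. There the share of false calls lay above the adjusted p threshold in the fits over stage and sex. It was slightly above it relative to mesenchyme, and below it in both splits. In the simulated sums 200 genes were changed and sums of the same library shared no library effect. The outcome therefore does not test the library block. Other filters, scalings, libraries and cell sets were tried, and samples of later stages were not analysed here.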

Additional observations from a re-analysis of the deposited data

Results flagged for a closer look

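In 8 of 77 sets of 4 CE values of E10.5 (levels of genes given with values above, the share of CE cells and 2 cell cycle shares), 1 library lay far from the other 3 by Dixon's test. Chance alone marks about 1 set in 20. XY replicate 1 was the library apart for 5 genes. It held Fos at 356 CPM against 75.1 to 108 in the others, Egr1 at 70.0 against 14.9 to 19.4, Bmp2 at 12.49 against 4.60 to 5.04, Sp5 at 5.10 against 0.756 to 1.37, and GFP of the transgene at 995 against 2095 to 2261. XX replicate 1, the library with the fewest CE cells, had Wt1 at 143 CPM against 202 to 213. Pax2 stood at 5.21 CPM in XX replicate 2 against 3.02 to 3.04, and Stra6 at 26.3 CPM in XY replicate 2 against 17.4 to 18.7.

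The change from E10.5 to E11.5 differed between CE and mesenchyme for 15 of the 19 genes whose change was set against mesenchyme by name, by edgeR's test of the interaction with library as a block. Over all genes 7.31% were called higher and 8.02% lower. Several of the 19, among them Gata2, Igfbp3 and Calb1, were named for being among the largest changes of this comparison, so the count reflects that choice. Lhx9 (log2 difference 1.76), Gata4 (1.71), Wnt5a (1.37), Calb1 (3.53) and Fos (0.42) changed more towards a rise in the CE. So did 4 Hoxd genes, Hoxd8 by 0.93, Hoxd9 by 1.38, Hoxd10 by 2.05 and Hoxd11 by 1.38. The calls of Fos and Hoxd11 were each lost under several of the other settings. Pax8 (-3.60), Gata2 (-4.43), Wnt4 (-2.51), Igfbp3 (-3.50), Aldh1a2 (-2.13) and Wnt6 (-2.47) changed more towards a fall.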

How the results depend on the processing

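The 144 values of genes named in the 7 comparisons were recomputed under up to 14 other settings each, 1641 values in all. Of these, 1542 kept their direction and side of the threshold (or stayed within the spread between libraries), 43 lost a call, 11 gained one, 25 moved by more than the spread and 20 changed sign. A changed sign touched a called value only for Lhx9, whose stage change relative to tubules in place of mesenchyme was -0.079. Against tubules Wt1 and Hes1, uncalled against mesenchyme, turned to 1.09 (past the edgeR test) and 0.34. The other signs turned where values were uncalled. Between the sexes, leaving out single libraries moved Upk3b from -0.22 to 0.43, Wt1 from -0.53 to 0.031, Lhx9 from -0.21 to 0.27 and Gata4 from -0.51 to 0.56. Relative to mesenchyme, leaving out single libraries moved Egr1 from -0.072 to 0.071, Wt1 from -0.096 to 0.013 and Nr5a1 from -0.27 to 0.060, and Egr1 lay at -0.0047 with DESeq2, -0.078 with total UMIs and -0.021 without the library block. Without both E11.5 replicate 2 libraries, a setting chosen after seeing the data, Upk3b over the stage lay at -0.076.

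Counts of genes higher and lower moved more. Over the stage they were 1531 and 1340 with equal cell numbers per library, and 1256 and 1042 without both E11.5 replicate 2 libraries. DESeq2 called 583 and 502 genes in the Nr5a1 split and 90 and 115 in the Pax8 split, where cells not matched in depth gave 357 higher. Leaving out each replicate gave 687 to 1067 and 589 to 947 for Nr5a1 and 139 to 272 and 153 to 323 for Pax8, the lowest without XY replicate 2 in each case. Between the sexes single libraries left out gave 0 to 2 and 0 to 10, DESeq2 3 and 8, no filter on low counts 2 and 6, the 4 libraries of E10.5 alone 2 and 4, and the E11.5 replicate 2 libraries left out 2 and 4. Against mesenchyme a pseudocount of 5 CPM gave 110 and 88 and no filter 278 and 217. Against tubules no filter gave 667 lower. The stage change relative to tubules in place of mesenchyme gave 2223 lower.

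Without the replicate block (the library in which both sums were measured), 372 and 311 genes passed for Nr5a1, 31 and 24 for Pax8, and 532 and 657 for the stage change relative to mesenchyme. Among named genes the Nr5a1 split then lost Tcf21, Six4, Cbx2, Hsd3b1, Rspo1 and Hoxd8, the Pax8 split lost Tcf21, Upk3b, Sox9, Igf1, Nr0b1, Sfrp1, Kctd14, Hoxd8 and Hoxd9, and the stage change relative to mesenchyme lost Fos and Hoxd11. With the title date as a replicate block, 0 genes were lower in XX. Thinning to 5000 UMIs put the shares of cells with a UMI at 22.5% for Upk3b, 47.2% for Lhx9, 28.1% for Nr5a1, 22.0% for Gata4, 58.2% for Wt1 and 7.16% for Pax8, so these shares depend on depth. Except where a setting holds fewer cells or libraries by construction, the cause of these shifts was not tested. The alternative that used doublet scores of the cell table was not run, since the columns used here hold none. Leaving out the 5% of cells with the highest newly computed scores, chosen after seeing the data, kept the counts within 1.5 times in the 5 comparisons where it was run, which were all but those of the sexes and of the stage change relative to mesenchyme.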
